A study of Rattus norvegicus with 10 samples.

Results

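The genes described here are the ATP-binding cassette (ABC) family of the rat, the proteins that use the energy of ATP to move lipids, drugs, peptides and other molecules across membranes. Members were taken by name, as the rows of the deposited table whose every gene symbol begins with Abc, then a letter from a to g, then a digit. Of 23824 rows, 42 met this rule, and together they name 45 genes, with Abcg3l2 on 2 rows. On 3 of them several genes share a row and cannot be told apart: Abcb1a with Abcb1b, Abcg3 with Abcg3l3, and Abcg3l1 with Abcg3l2 and Abcg3l4. A further row, which joins Abcg3l4 to a gene outside the family, was left out. RefSeq names 54 protein-coding genes of this pattern in the GRCr8 assembly, and 9 of them (Abca3, Abca6, Abca8, Abca8a, Abca9, Abca12, Abca14, Abca16 and Abcb5) were not analysed here. Cftr and the peptide transporters Tap1 and Tap2 belong to the family by structure but not by name, and are given only among the related genes at the end.

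All animals were male Sprague-Dawley rats of 200 to 240 g. No age, genetic change or drug is named in the labels. They received a traumatic brain injury (TBI) by fluid percussion, in which a pulse of fluid pressure strikes the exposed dura, or sham surgery. They were tested for learning 1 week after surgery and the hippocampus was then taken. Poly-A RNA was sequenced in 10 libraries, 5 sham and 5 TBI. No source used here gives the severity or side of the injury. It is not stated outright that each library is a separate rat, and p-values therefore rest on the scatter among these 10 libraries, which may be technical.

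The family is divided by sequence into subfamilies A to G. Most members are pumps that carry their cargo out of the cytosol, either to the outside of the cell or into an organelle. In brain, the drug pumps Abcb1 (P-glycoprotein) and Abcg2 (breast cancer resistance protein) face the blood at the capillary endothelium and limit the entry of many drugs. Abca1 and Abcg1 load cholesterol and phospholipid onto apolipoprotein E particles made by glia. Others import very long chain fatty acids into peroxisomes, serve iron and heme handling in mitochondria, or form the regulatory subunit of a potassium channel. Subfamilies E and F have the ATP-binding domains but no membrane part, and act on ribosomes.

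Values are FPKM, fragment counts corrected for transcript length and for library size, so levels of different genes can be compared. The sum per library lay between 523239 and 629660 FPKM. The read depth is unknown, and precision was therefore taken from the spread between libraries. The hippocampal markers Prox1 (lowest library 6.99 FPKM, highest 22.1), Wfs1 (64.03 to 264.9) and Neurod6 (43.9 to 143.1) were present in all libraries, while Fibcd1 was listed at 0 in each. The pieces differed in other tissue. A choroid plexus score over 13 markers, the mean of their centred log2 values, ran from -3.38 to 3.03, and was low in sham 1, sham 4, sham 5 and TBI 2. A matrix and meninges score over 13 markers was above 0 only in sham 4 (1.93), TBI 1 (1.71) and sham 2 (1.32); of its list, Col1a2 was listed at 0 in all libraries. TBI 1 also had the lowest neuron score (-0.62, others -0.17 to 0.19).

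The family spanned a wide range of levels. The lipid transporter Abca2 had the highest mean over the 10 libraries, at 47.0 FPKM, followed by the peroxisomal transporter Abcd3 at 33.995, the ribosome recycling factor Abce1 at 29.2, and Abcf1 at 28.9 and Abcf3 at 25.4, which act in translation. Abca2 exceeded Abcd3 in every library, and among the 4 that follow the ranges of neighbours overlapped. Of the 42 members, 34 had a mean of at least 0.5 FPKM and were tested. Among these, 12 lay above a mean of 10 FPKM, 20 between 1 and 10, and 2 below 1. Another 8 members lay below the minimum, and 1 of those, Abca15, was listed at 0 in all libraries.

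**Figure D1:**
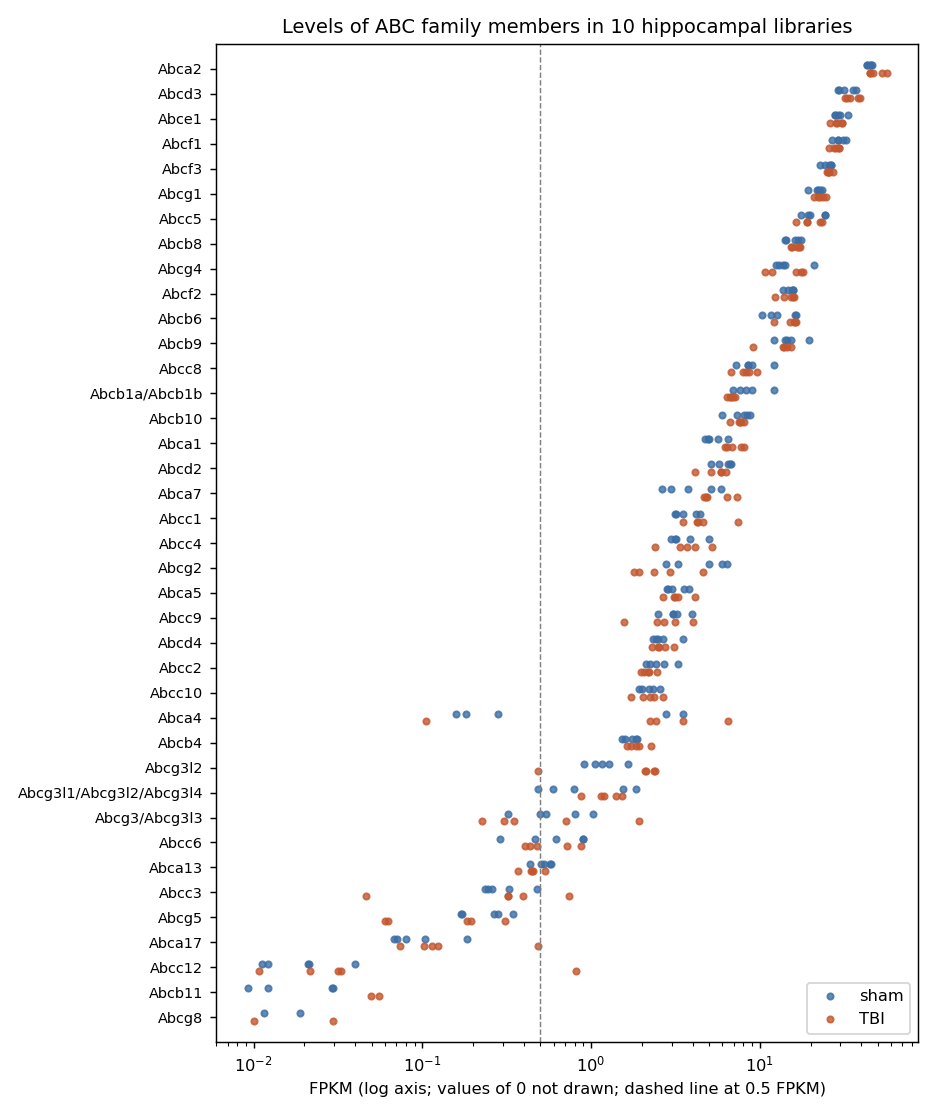
Level of 39 members in each library (FPKM, log axis), ordered by mean, with sham libraries in blue and TBI libraries in orange and values of 0 not drawn. Abca2 lies at the top between 43.4 and 56.4 FPKM, sham and TBI points overlap in each tested member, and Abca4 spreads from 0.105 to 6.48.

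The design asks which members differed between injured and sham rats 1 week after surgery. None did so after adjustment. In limma's test on log2(FPKM + 0.5), 0 of the 34 members tested had a Benjamini-Hochberg adjusted p under 0.05 over all 16194 rows tested, where 0.0% of rows passed. An exact permutation test adjusted in the same way called 0 too, which adds nothing to limma's result. With 252 assignments its p has a floor of 0.00794. Adjusted over 16194 rows, that floor passes 0.05 only if very many rows reach it together. At an unadjusted p under 0.05 there were 3 members, against 2.91% of all rows (472 rows: 228 or 1.41% higher and 244 or 1.51% lower after TBI; 164 higher and 303 lower under quantile normalization). Those 3 were Abca1, which was higher, and Abcg2 and the Abcb1a/Abcb1b row, which were lower. Groups did not overlap in 0 members, against 0.482% of all rows.

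Most members differed little between the groups. The log2 difference, TBI minus sham, was below 0.2 in size in 26 of the 34. The 95% interval lay within 1 log2 unit either way in 31, and within 0.5 log2 unit in 22. A lower mean log2 value after TBI was found in 18 members, against 49.6% of all rows. The median difference of the members was -0.0022, and that of all rows 0.0013. By role, 6 of the 8 efflux pumps tested had a lower mean log2 value, whereas 7 of the 8 sterol and phospholipid transporters had a higher one. That these counts differ was not tested, and in both roles most of these differences were within the spread between libraries. The sign changed in some alternative fits for Abcc4, Abcc5, Abcc6 and Abcc10 among the pumps. It also did so for Abca5, Abcg1 and Abcg4 among the lipid transporters.

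**Figure D2:**
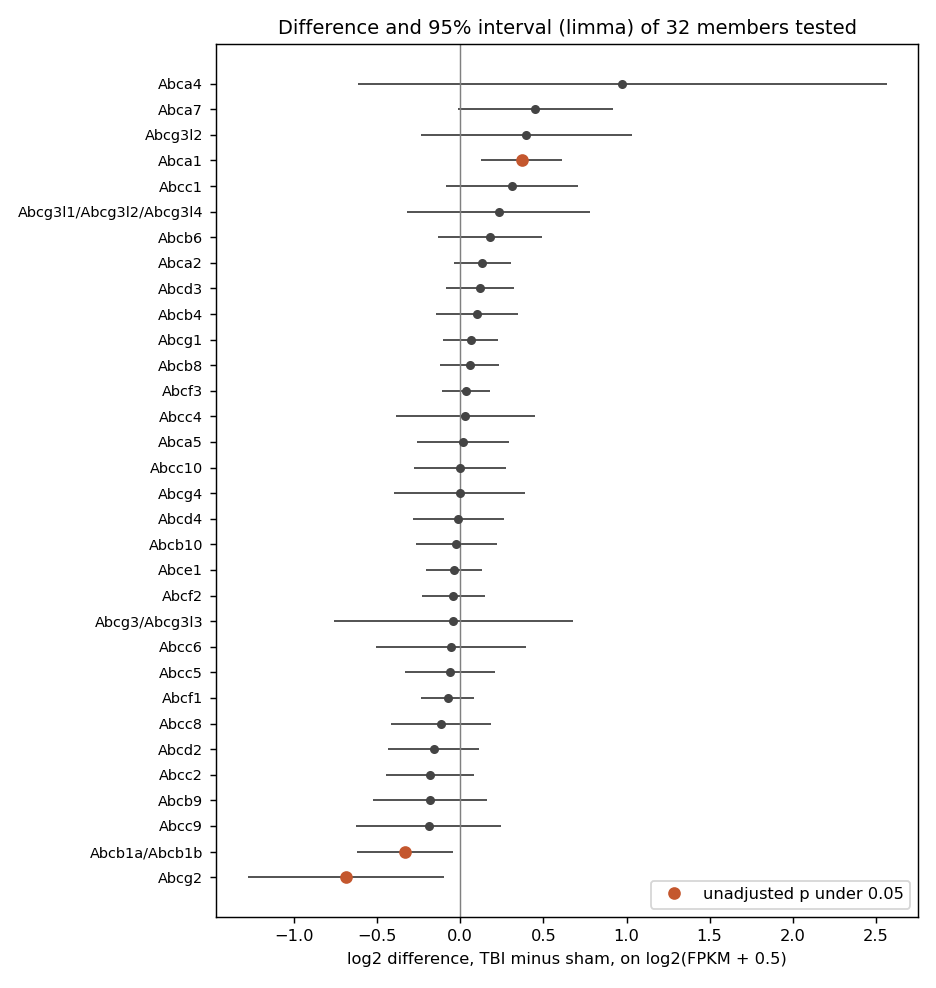
Difference between TBI and sham of 32 members tested on log2(FPKM + 0.5), with bars for limma's 95% interval, ordered by size. The 3 members in orange (Abca1 at 0.37, Abcb1a/Abcb1b at -0.33 and Abcg2 at -0.69) had an unadjusted p under 0.05, and the interval of Abca4 is the widest.

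The results turn most on Abca1, Abcg2 and the joint row of Abcb1a and Abcb1b, so the 250 bases before the RefSeq start of these 4 genes are shown, 5′ to 3′ on the gene's strand, from the GRCr8 assembly. Capitals mark matches on either strand to the GC box (GGGCGG), the CCAAT box (CCAAT), the TATA box (TATAAA), the E-box (CACGTG) and a direct repeat. The repeat was searched as 2 copies of GGTNA in 1 direction with 5 bases between. Counting the base before each GGTNA as part of the copy, this is a direct repeat with a 4-base spacer. That is the form bound by liver X receptors with their RXR partner. No matches overlapped.
Abca1 (chr5:72596474-72596723, minus strand): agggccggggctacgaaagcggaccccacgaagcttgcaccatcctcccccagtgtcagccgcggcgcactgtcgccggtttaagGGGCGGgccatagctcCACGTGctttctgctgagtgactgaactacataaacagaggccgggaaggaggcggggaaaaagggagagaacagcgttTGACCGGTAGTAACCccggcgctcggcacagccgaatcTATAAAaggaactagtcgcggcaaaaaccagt
Abcg2 (chr4:89075224-89075473, plus strand): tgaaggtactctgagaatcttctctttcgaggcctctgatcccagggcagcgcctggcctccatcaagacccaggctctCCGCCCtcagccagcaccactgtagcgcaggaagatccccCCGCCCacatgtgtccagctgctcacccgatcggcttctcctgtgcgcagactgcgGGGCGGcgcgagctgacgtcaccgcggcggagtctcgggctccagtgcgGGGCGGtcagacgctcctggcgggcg
Abcb1a (chr4:26397649-26397898, minus strand): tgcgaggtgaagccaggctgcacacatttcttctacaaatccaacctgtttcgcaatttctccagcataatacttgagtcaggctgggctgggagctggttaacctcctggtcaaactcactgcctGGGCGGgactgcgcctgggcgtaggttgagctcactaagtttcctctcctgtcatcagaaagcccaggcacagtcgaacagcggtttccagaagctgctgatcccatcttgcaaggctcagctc
Abcb1b (chr4:26280030-26280279, minus strand): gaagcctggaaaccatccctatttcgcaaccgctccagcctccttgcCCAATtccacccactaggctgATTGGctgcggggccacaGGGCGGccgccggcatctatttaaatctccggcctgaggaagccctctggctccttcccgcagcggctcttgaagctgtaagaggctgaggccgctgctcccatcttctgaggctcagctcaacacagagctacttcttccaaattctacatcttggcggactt
Abca1, a known liver X receptor target, had 1 match each to the GC box, E-box, direct repeat and TATA box, the direct repeat at -70 to -56 from the start and the TATA box at -32 to -27. The letters of the repeat were set after this sequence had been seen. Abcg2 had 4 GC boxes and no other match. Abcb1a had 1 GC box, and Abcb1b had 1 GC box and 2 CCAAT boxes, so the joint row adds up transcripts of 2 genes with different promoter letters. Of all 33469 RefSeq promoters of this length, 30.5% held the GC box, 34.02% the CCAAT box, 12.9% the TATA box, 5.59% the E-box and 0.592% the repeat. Of the 36 member genes with a promoter entry, 25 held the GC box, 13 the CCAAT box, 5 the TATA box, 3 the E-box and 1, Abca1, the repeat. The 36 were taken as 1 promoter per gene, and the 33469 as all entries without a filter on gene type. Whether the shares of the 2 sets differ was not tested. A match describes letters only and is no evidence of binding in these libraries.

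Among the drug and organic anion efflux pumps, P-glycoprotein and Abcg2 had the largest differences, both lower after TBI. Abcb1a/Abcb1b was at 6.95, 7.603, 8.30, 12.2 and 9.02 FPKM in sham 1 to 5 and at 6.69, 6.41, 6.90, 6.78 and 7.11 in TBI 1 to 5. Of the TBI libraries, 4 lay below the lowest sham library, and 4 sham libraries lay above the highest TBI library. The injured libraries were close together and the sham libraries were spread, with means of 8.81 ± 2.04 FPKM over the sham libraries and 6.78 ± 0.260 over the injured ones (SD, n = 5 each), a ratio of 0.769. The log2 difference was -0.33 (SE 0.13, 95% interval -0.62 to -0.04), with an unadjusted p of 0.0289 and an adjusted p of 0.983 in limma's test (0.540 to 1 over the alternatives), and TBI was below the sham mean in 5 of 5 libraries. Sham 4, the highest, carried much of it: without sham 4 the difference was -0.21 (unadjusted p 0.0471). The unadjusted p was under 0.05 in 20 of 26 alternatives. It was between 0.0565 and 0.0894 without sham 5, without TBI 2, without sham 2, sham 4 and TBI 1 together, and with the choroid plexus score, that and the matrix score, or the endothelial score as covariates.

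Abcg2 was at 2.77, 3.29, 5.95, 6.36 and 4.97 FPKM in sham 1 to 5 and at 1.80, 2.93, 2.35, 4.60 and 1.92 in TBI 1 to 5. The 3 lowest values were those of TBI 1, TBI 5 and TBI 3, and the 3 highest those of sham 4, sham 3 and sham 5, but TBI 4 lay among the sham libraries and sham 1 among the injured. Means were 4.67 ± 1.59 FPKM over the sham libraries and 2.72 ± 1.14 over the injured ones (SD, n = 5 each), a ratio of 0.583. The log2 difference was -0.69 (SE 0.27, 95% interval -1.28 to -0.10), with an unadjusted p of 0.0264 and an adjusted p of 0.983 in limma's test (0.540 to 1 over the alternatives). Leaving out any 1 of sham 3, sham 4, sham 5, TBI 1, TBI 3 or TBI 5 moved the unadjusted p to between 0.0518 and 0.0662. It was 0.0585 with the choroid plexus score, 0.0704 with that and the matrix score, and 0.114 without sham 2, sham 4 and TBI 1. It stayed under 0.05 in 17 of 26 alternatives, while the direction stayed the same in all 26 alternatives.

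In bulk tissue, fewer endothelial cells and less RNA of these pumps per cell cannot be told apart. Of 11 endothelial markers tested, 7 had a lower mean after TBI, against 49.6% of all rows. Of these, 2 had an unadjusted p under 0.05 in limma's test, against 1.51% of all rows that were lower at that p. The score of the markers ran from -0.18 to 0.45 in sham and from -0.24 to 0.32 after TBI. All 11 were above 0 in each library. The tight junction protein Cldn5 was at 68.3 ± 8.49 FPKM over the sham libraries and 49.2 ± 3.76 over the injured ones (SD, n = 5 each). Its values were at least 61.3 in sham and at most 54.3 after TBI (unadjusted p 0.000461, adjusted p 0.983 in limma's test). Pecam1, an adhesion molecule of all endothelium, was at 7.59 ± 1.69 and 7.37 ± 1.68 (unadjusted p 0.832 in limma's test). The libraries ranked alike on pumps and score only in part. Sham 4 had the highest endothelial score of all 10 (0.45) and the highest Abcb1a/Abcb1b and Abcg2, at 12.2 and 6.36 FPKM. TBI 1 had the highest endothelial score of the injured libraries (0.32) but the lowest Abcg2 of all 10, at 1.80 FPKM. With the endothelial score as a covariate, the log2 difference was -0.73 for Abcg2 and -0.27 for Abcb1a/Abcb1b (unadjusted p 0.0308 and 0.0604).

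**Figure D3:**
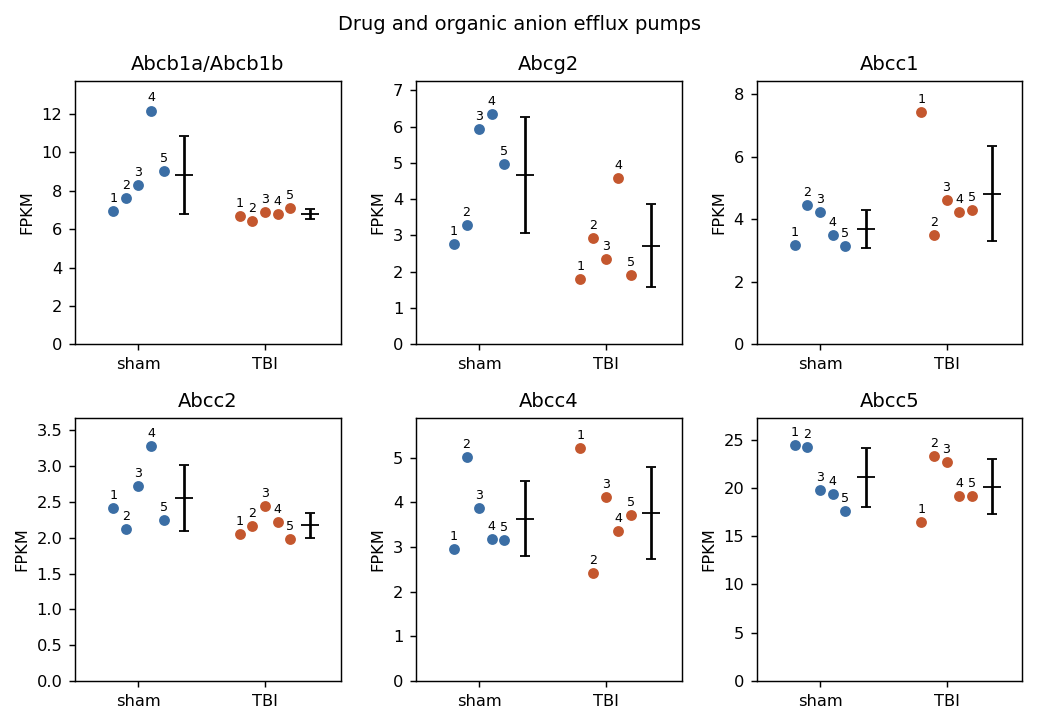
FPKM of 6 efflux pumps in each library (points, numbered by library), with bars for the mean and SD of the 5 libraries of a group. Abcb1a/Abcb1b and Abcg2 have lower means after TBI, Abcc1 is set apart by TBI 1 at 7.43 FPKM, and Abcc4 and Abcc5 overlap widely.

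The multidrug resistance proteins of subfamily C did not share one direction. Abcc1, which exports glutathione conjugates and leukotriene C4, was at 3.18, 4.45, 4.21, 3.49 and 3.13 FPKM in sham 1 to 5 and at 7.43, 3.49, 4.62, 4.22 and 4.27 in TBI 1 to 5. TBI 1 stood far above the rest, and the log2 difference of 0.31 (SE 0.18, 95% interval -0.08 to 0.71) was 0.16 without it. With the choroid plexus score as a covariate it was 0.14. Abcc4, which exports cyclic nucleotides and prostaglandins, was at 2.96, 5.01, 3.87, 3.17 and 3.16 FPKM in sham 1 to 5 and at 5.22, 2.41, 4.11, 3.36 and 3.70 in TBI 1 to 5. Its highest values were those of TBI 1 and sham 2 and its lowest that of TBI 2, and the difference of 0.03 (SE 0.19, 95% interval -0.39 to 0.45) changed sign under quantile normalization (-0.02) and with the choroid plexus score (-0.18). Abcc5, another cyclic nucleotide exporter and the most abundant of these pumps, was at 24.4, 24.3, 19.8, 19.4 and 17.7 FPKM in sham 1 to 5 and at 16.5, 23.3, 22.7, 19.2 and 19.1 in TBI 1 to 5. Its groups overlapped almost fully (log2 difference -0.06).

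Abcc2, best known as the canalicular pump of liver, was measured at 1.99 to 3.28 FPKM, with means of 2.56 ± 0.463 FPKM over the sham libraries and 2.18 ± 0.176 over the injured ones (SD, n = 5 each) and a log2 difference of -0.18 (SE 0.12, 95% interval -0.45 to 0.09). Its sham mean exceeded each of the 5 injured values, but 2 of these were below the lowest sham library. Abcc10, a broad drug pump, lay at 1.72 to 2.68 FPKM and did not separate the groups (log2 difference -0.00192, sign not stable). Abcc6, the pump mutated in pseudoxanthoma elasticum, was near the minimum at 0.287 to 0.899 FPKM, and Abcc3, an exporter of bile salts and conjugates, lay below it at 0.0464 to 0.737.

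Of the sterol and phospholipid transporters, Abca1 and Abca7 had higher means after TBI. Abca1, which lipidates apolipoproteins, was at 4.95, 5.68, 4.72, 5.02 and 6.45 FPKM in sham 1 to 5 and at 8.08, 6.24, 7.79, 6.39 and 6.86 in TBI 1 to 5. Each of the 5 injured libraries lay above 4 of the 5 sham libraries, and 3 of them above all 5. Means were 5.36 ± 0.706 FPKM over the sham libraries and 7.07 ± 0.826 over the injured ones (SD, n = 5 each), a ratio of 1.32. The log2 difference was 0.37 (SE 0.11, 95% interval 0.13 to 0.61), with an unadjusted p of 0.00652 and an adjusted p of 0.983 in limma's test (0.540 to 1 over the alternatives). It was the member with the smallest p, and its difference stayed between 0.32 and 0.43 with an unadjusted p of at most 0.0419 in all 26 alternatives.

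Abca7, the closest relative of Abca1 and a gene expressed in phagocytes, was at 5.13, 5.91, 3.73, 2.96 and 2.65 FPKM in sham 1 to 5 and at 7.33, 4.83, 6.43, 4.80 and 4.70 in TBI 1 to 5. The injured libraries lay above the sham mean in 5 of 5, and 3 sham libraries lay below all of them. Its log2 difference was 0.45 (SE 0.21, 95% interval -0.02 to 0.92), with an unadjusted p of 0.0570, and 0.33 with the choroid plexus score. Both genes were highest in TBI 1 and TBI 3. TBI 3 had the highest microglia score of the libraries (0.73, others -0.36 to 0.17), while TBI 1 was at -0.13. All 12 markers of that score had a higher mean after TBI, while 49.6% of all rows had a lower one. Of the 12, 0 had an unadjusted p under 0.05 in limma's test. Apart from TBI 3, the score ran from -0.18 to 0.08 after TBI, against -0.36 to 0.17 in sham. With the score as a covariate the differences were 0.33 for Abca1 and 0.47 for Abca7.

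The partners of Abca1 in cholesterol efflux had smaller differences. Abcg1, which passes cholesterol on to lipoprotein particles, was at 22.8, 19.2, 23.4, 21.9 and 22.0 FPKM in sham 1 to 5 and at 24.7, 23.6, 22.3, 21.0 and 22.7 in TBI 1 to 5. It was above Abca1 in each of the 10 libraries, and its log2 difference was 0.06 (SE 0.07, 95% interval -0.10 to 0.23), less than the spread between libraries. Abcg4, its close relative of neurons and glia, was at 20.9, 13.8, 14.0, 13.1 and 12.5 FPKM in sham 1 to 5 and at 10.8, 17.95, 17.5, 16.3 and 11.8 in TBI 1 to 5. Sham 1 was the highest library and TBI 1 the lowest, and the group means were nearly equal (ratio 1.00).

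Abca2, a lysosomal lipid transporter of oligodendrocytes and neurons, was at 46.2, 45.1, 45.4, 43.4 and 43.5 FPKM in sham 1 to 5 and at 47.1, 45.0, 56.4, 44.8 and 53.0 in TBI 1 to 5. Sham libraries were tight, TBI 3 and TBI 5 were the highest, and the log2 difference was 0.13 (SE 0.08, 95% interval -0.04 to 0.30) with 5 of 5 injured libraries above the sham mean. Those libraries also had the highest oligodendrocyte scores (0.42 in TBI 5 and 0.22 in TBI 3, others -0.40 to 0.15), whose part in the difference was not tested. Of the 11 markers of that score, 10 had a higher mean after TBI, while 49.6% of all rows had a lower one. An unadjusted p under 0.05 in limma's test was found for 0 of the 11. Abca5, a lysosomal and endosomal relative, was at 3.80, 2.84, 3.03, 3.57 and 2.83 FPKM in sham 1 to 5 and at 4.14, 3.28, 2.68, 3.11 and 3.13 in TBI 1 to 5 and showed no separation (log2 difference 0.02). Abcb4, the phosphatidylcholine floppase of bile, lay at 1.53 to 2.28 FPKM with a difference of 0.10.

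**Figure D4:**
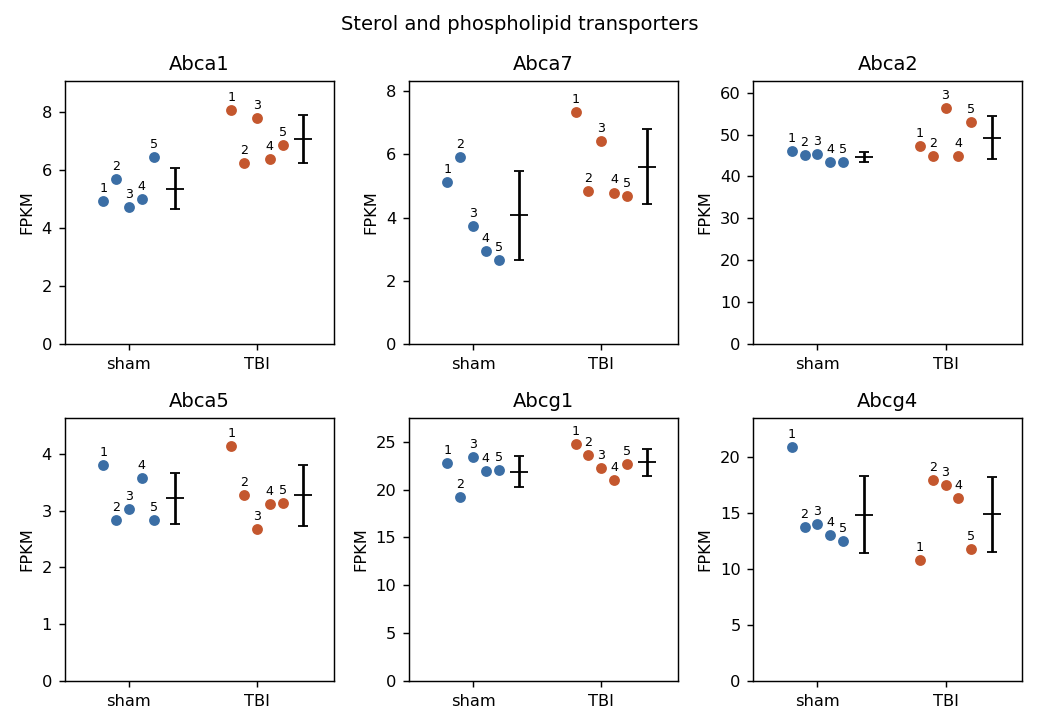
FPKM of 6 sterol and phospholipid transporters in each library (points, numbered by library), with bars for the mean and SD of the 5 libraries of a group. Abca1 lies at 4.72 to 6.45 FPKM in sham and 6.24 to 8.08 after TBI, whereas Abcg1 and Abcg4 overlap.

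Abca4, the retinoid flippase of photoreceptors, had the widest range of the tested members and is named here because of it, after its values had been seen. It was at 0.158, 3.49, 2.77, 0.281 and 0.182 FPKM in sham 1 to 5 and at 6.48, 0.105, 2.24, 2.41 and 3.49 in TBI 1 to 5. The highest library was 61.8 times the lowest. Sham 1, sham 4, sham 5 and TBI 2, all at 0.281 FPKM or less, were the 4 libraries with the lowest choroid plexus scores, and TBI 1, the highest, also had the highest score. Ttr, the main choroid plexus transcript, was at 34.5 to 421 FPKM in those 4 libraries and at 9079 to 32233 in the other 6. All 13 choroid plexus markers tested had a higher mean after TBI, and 0 of them an unadjusted p under 0.05. The log2 difference between the groups, 0.98 (SE 0.72, 95% interval -0.61 to 2.56), was 0.04 with the choroid plexus score as a covariate and 1.51 without TBI 2 (unadjusted p 0.0337 in limma's test). Abcc1 and Abcc4 were also highest in TBI 1 and lowest in the 4 libraries poor in choroid plexus, but not near 0 there. Abcc1 was at 3.13 to 3.49 FPKM in those 4 and at 4.21 to 7.43 in the other 6. Abcc4 was at 2.41 to 3.17 FPKM and at 3.36 to 5.22 in the same order.

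**Figure D5:**
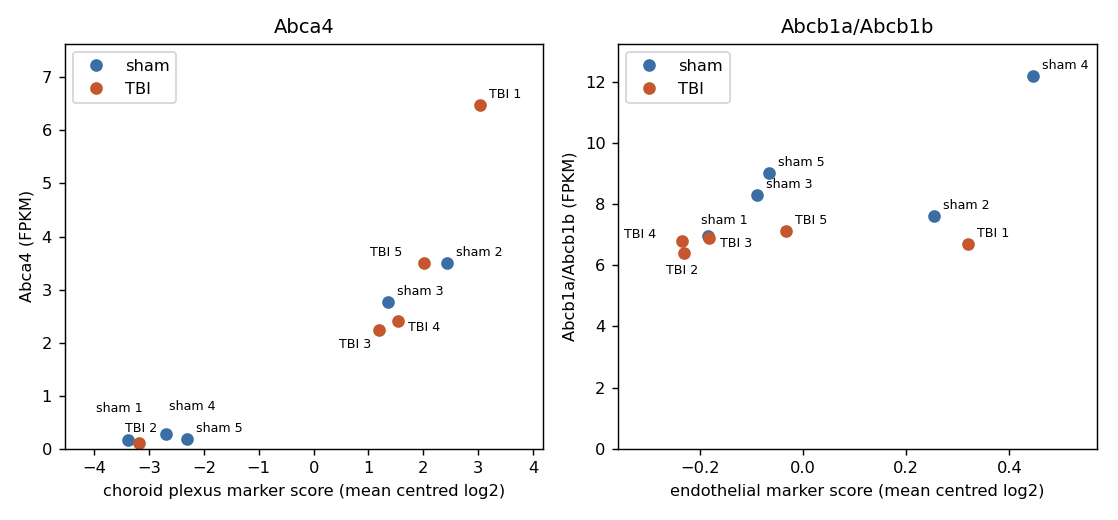
Abca4 (FPKM) against the choroid plexus marker score, left, and Abcb1a/Abcb1b (FPKM) against the endothelial marker score, right, with 1 point per library. The 4 libraries with scores below -2 have Abca4 of at most 0.281 FPKM, and sham 4 is highest on both axes of the right panel while TBI 1 has a high endothelial score and 6.69 FPKM of Abcb1a/Abcb1b.

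The peroxisomal transporters carry very long chain fatty acids into the organelle for beta-oxidation. Abcd2, which prefers long polyunsaturated chains, was at 6.77, 5.13, 5.77, 6.46 and 6.63 FPKM in sham 1 to 5 and at 4.12, 5.92, 6.33, 5.91 and 5.12 in TBI 1 to 5. Abcd3, which also takes branched-chain and bile acid intermediates, was at 35.6, 37.2, 31.5, 29.1 and 29.7 FPKM in sham 1 to 5 and at 39.4, 38.1, 33.0, 34.5 and 32.0 in TBI 1 to 5. The libraries of both groups overlapped in both genes, and Abcd3 exceeded Abcd2 in each library. Log2 differences were -0.16 (SE 0.12, 95% interval -0.44 to 0.11) for Abcd2 and 0.12 (SE 0.09, 95% interval -0.09 to 0.32) for Abcd3, neither larger than the spread between libraries by limma's test. TBI 1 had the lowest Abcd2 and the highest Abcd3. Abcd4, a lysosomal exporter of cobalamin and no peroxisomal protein, lay at 2.30 to 3.49 FPKM with a difference of -0.01.

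Abcb6, a mitochondrial member linked to porphyrin transport, was at 16.3, 16.4, 12.7, 11.7 and 10.2 FPKM in sham 1 to 5 and at 15.1, 15.98, 16.5, 16.1 and 12.1 in TBI 1 to 5. Its difference was 0.18 (SE 0.14, 95% interval -0.13 to 0.49), with TBI 5 apart from the other injured libraries. Abcb8 and Abcb10, which protect mitochondria from iron and oxidative stress, lay at 14.2 to 17.5 and 5.93 to 8.80 FPKM with log2 differences of 0.06 and -0.02. Abcb9, a peptide transporter of lysosomes, was at 14.5, 19.5, 15.3, 14.1 and 12.1 FPKM in sham 1 to 5 and at 9.07, 13.9, 15.2, 13.7 and 14.5 in TBI 1 to 5. TBI 1 was the lowest library by a wide margin and sham 2 the highest, and the log2 difference of -0.18 (SE 0.16, 95% interval -0.53 to 0.16) was 0.04 without sham 2, sham 4 and TBI 1.

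The sulfonylurea receptors are not pumps but the regulatory subunits of ATP-sensitive potassium channels. Abcc8 (SUR1), the form of neurons, was at 8.55, 12.2, 8.97, 7.202 and 8.51 FPKM in sham 1 to 5 and at 7.98, 8.64, 9.63, 6.76 and 8.33 in TBI 1 to 5. Sham 2 was the highest library, and the log2 difference was -0.12 (SE 0.14, 95% interval -0.42 to 0.18). Abcc9 (SUR2), the form of pericytes and smooth muscle, was at 3.08, 3.94, 3.06, 3.22 and 2.49 FPKM in sham 1 to 5 and at 4.03, 2.46, 3.16, 1.56 and 2.71 in TBI 1 to 5. It was highest in TBI 1 and sham 2 and lowest in TBI 4, and its difference was -0.19 (SE 0.20, 95% interval -0.62 to 0.24). The pore subunits of these channels also had lower means after TBI: Kcnj11 was at 9.98 ± 1.74 FPKM over the sham libraries and 8.16 ± 1.22 over the injured ones, and Kcnj8 at 2.67 ± 0.424 and 2.20 ± 0.384 (SD, n = 5 each). None of the 4 genes passed limma's test, with unadjusted p of 0.411, 0.354, 0.0822 and 0.123 for Abcc8, Abcc9, Kcnj11 and Kcnj8. Sham 4, TBI 1 and sham 2 had the highest pericyte and smooth muscle scores (1.01, 0.99 and 0.41, others -0.47 to -0.21). These libraries also had the highest Abcc9, at 3.22, 4.03 and 3.94 FPKM in that order, with TBI 3 next at 3.16. Among them the order by score and by Abcc9 was not the same, and the part of cell content was not tested.

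The soluble members had some of the narrowest ranges of the family. Abce1, which splits ribosomes after termination, was at 33.4, 29.1, 29.9, 27.8 and 27.7 FPKM in sham 1 to 5 and at 26.0, 30.8, 28.7, 30.5 and 28.2 in TBI 1 to 5. Sham 1 was the highest and TBI 1 the lowest, and the log2 difference was -0.04 (SE 0.08, 95% interval -0.20 to 0.13). Abcf1, which acts with initiation factor eIF2, lay at 25.6 to 32.2 FPKM, Abcf2 at 12.3 to 15.9 and Abcf3 at 22.6 to 27.1, with log2 differences of -0.08, -0.04 and 0.04. For Abcf1 the sham mean exceeded each of the 5 injured values, but just 1 of these was below the lowest sham library. Highest and lowest library differed by a factor of 1.20 in Abcf3, against 3.53 in Abcg2 and 61.8 in Abca4.

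The Abcg3 group consists of rodent-specific relatives of Abcg2 whose transport activity is uncertain. They are near-identical copies, so reads may have been divided among their loci and their values are uncertain. Abcg3l2 was at 0.905, 1.66, 1.16, 1.27 and 1.06 FPKM in sham 1 to 5 and at 2.37, 2.41, 2.13, 0.483 and 2.08 in TBI 1 to 5. Of the injured libraries 4 lay above all sham libraries and TBI 4 below all, and the log2 difference of 0.40 (SE 0.29, 95% interval -0.24 to 1.03) was 0.69 without TBI 4 (unadjusted p 0.000882, adjusted p 0.991 in limma's test, 0.546 to 1 over the alternatives). The row of Abcg3l1, Abcg3l2 and Abcg3l4 lay at 0.483 to 1.84 FPKM with a difference of 0.23, and the row of Abcg3 and Abcg3l3 at 0.226 to 1.93 with -0.04.

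Several members of liver, gut or unclear role lay below the minimum for testing. Abcg5 and Abcg8, which together form the sterol pump of bile and intestine, lay at 0.0600 to 0.342 and 0 to 0.0296 FPKM, and the bile salt pump Abcb11 at 0 to 0.0556. Abca13, a very large A subfamily member, was at 0.367 to 0.581 FPKM, just under the minimum for testing, while Abcc6, just above it, had a mean of 0.607. Abcc12 was at 0.0121, 0.0399, 0.0210, 0.0212 and 0.0113 FPKM in sham 1 to 5 and at 0.818, 0.0316, 0.0215, 0.0329 and 0.0107 in TBI 1 to 5. Abca17 was at 0.0797, 0.103, 0.0703, 0.183 and 0.0682 FPKM in sham 1 to 5 and at 0.485, 0.123, 0.102, 0.114 and 0.0741 in TBI 1 to 5. Both were at their highest in TBI 1 and low in the other 9 libraries. No test was made of these members.

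TBI 1 was more often at an extreme than the other libraries, highest in 12 and lowest in 8 of the 34 members tested. Sham 2 and TBI 3 were each highest in 5 and lowest in 2, and sham 4 was highest in 4 and lowest in 3. Among the members highest in TBI 1 were Abca1, Abca4, Abca5, Abca7, Abcc1, Abcc4, Abcc9 and Abcd3, and among those lowest there were Abcb9, Abcc5, Abcd2, Abce1, Abcf1, Abcf2, Abcg2 and Abcg4. Without TBI 1 the log2 difference was 0.32 for Abca1, 0.36 for Abca7, -0.58 for Abcg2 and -0.33 for Abcb1a/Abcb1b. Without sham 2, sham 4 and TBI 1, the libraries rich in matrix and meninges markers, it was 0.33, 0.42, -0.56 and -0.23 in the same order.

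Genes that work with these members did not pass the test either. In limma's test, 0 genes of the related lists had an adjusted p under 0.05 and 0 an unadjusted p under 0.05. Of 13 rows of sterol efflux and liver X receptor genes tested, 7 had a higher and 6 a lower mean after TBI (median log2 difference 0.02). The liver X receptor Nr1h2 was at 25.7 ± 1.96 FPKM over the sham libraries and 23.5 ± 1.46 over the injured ones (SD, n = 5 each). The locus shared by Lcat, which esterifies cholesterol on lipoproteins, and Slc12a4 was at 12.5 ± 4.41 and 18.4 ± 6.19. That locus was at 8.02 to 10.7 FPKM in the libraries poor in choroid plexus (sham 1, sham 4, sham 5 and TBI 2). In the other libraries it was at 14.4 to 24.6. Of 12 other blood-brain barrier transporters, 6 had a higher and 6 a lower mean (median 0.01). The amino acid carrier Slc7a5 was at 27.2 ± 2.57 and 23.9 ± 2.52, and the glucose carrier Slc2a1 at 65.3 ± 12.5 and 56.4 ± 7.09.

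Of 6 nuclear receptors and other transcription factors known to regulate drug pumps, Nr1i2 (PXR) and Nr1i3 (CAR) lay below the minimum, at no more than 0.545 and 0.120 FPKM, and of the 4 others (Ahr, Nfe2l2, Nr3c1 and Ppara) 2 had a higher and 2 a lower mean, with the glucocorticoid receptor Nr3c1 at 15.5 ± 2.80 and 14.3 ± 1.62 FPKM. Of 10 peroxisomal genes 7 had a higher mean, and the smallest p was that of the biogenesis factor Pex3, at 12.8 ± 1.64 and 14.5 ± 1.03. Of 8 mitochondrial iron-sulfur and heme genes 4 had a higher mean, with the iron carrier Slc25a28 at 27.5 ± 3.94 and 24.2 ± 2.72. Of 6 genes of translation initiation, termination and ribosome rescue (Eif1ax, Eif2s1, Eif2s2, Etf1, Hbs1l and Pelo) 4 had a higher mean, with the initiation factor subunit Eif2s2 at 29.8 ± 1.86 and 31.1 ± 1.94. The shared locus of the antigen peptide transporters Tap1 and Tap2 was at 2.31 ± 0.691 and 2.82 ± 1.19 FPKM and highest in TBI 1, and the chloride channel Cftr was at no more than 0.438 FPKM in any library. All SDs are over n = 5.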

How the data were processed

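Hippocampal poly-A RNA of 5 sham and 5 TBI rat libraries was analysed from the table of FPKM values that the authors deposited. The submitters' processing notes name the build rn5 and the tools Cufflinks, Cuffdiff, TopHat, TopHat2, Bowtie and Bowtie2, without roles or versions; the annotation and the filters used were not stated there. The 75th percentiles of the deposited FPKM columns lay between 13.1 and 13.5. No counts were recovered, depth is unknown, and counting by strand is not recorded, so overlapping genes cannot be told apart. All member rows had the status OK in every library.

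Rows sharing a symbol were summed per library, which gave 23824 rows; each member had 1 locus. Loci without a name, 7177 of 25269, were kept one by one, and the 16194 rows with a mean of at least 0.5 FPKM were tested. The test was limma 3.58.1 (R 4.3.3), two-sided, with a trend of the variance on the mean, on log2(FPKM + 0.5), and p-values were Benjamini-Hochberg adjusted over all rows tested, with a threshold of 0.05. Differences on this scale understate the change of low genes. The procedure was tested on simulated data.

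The members and lists were chosen with earlier results of these data known. Values in every library are given for a chosen list of members, for those with an unadjusted p under 0.05 and for those with a library far from its group; of related lists, the 1 or 2 genes with the smallest p are named, and a few others, chosen after their values were seen. Alternatives covered pseudocount, filter, loci kept apart, scaling, variance model, library weights, a replicate block, an exact permutation test (252 assignments, smallest possible p 0.00794), choroid plexus and matrix scores as covariates and each library left out. The endothelial and microglia scores as covariates and the fit without sham 2, sham 4 and TBI 1 were chosen after seeing the data. Promoters and symbols came from RefSeq tables of GRCr8, not the build of the values, so no positions are given with expression values; 36 of 45 genes had a promoter entry. Of the 34 members tested, 2 enter the counts but are not reported here one by one.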

Additional observations from a re-analysis of the deposited data

Results flagged for a closer look

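In 6 of 82 groups of 5 libraries 1 library lay far from the rest on the log2 scale (Dixon's criterion), where chance flags about 1 in 20 groups, 4.10 here. Among sham libraries, sham 1 stood out for Abcg4, at 20.9 FPKM, against 12.5 to 14.0 in the other 4. After TBI, TBI 5 stood out for Abcb6, at 12.1 FPKM, against 15.1 to 16.5 in the other 4, and TBI 4 for Abcg3l2, at 0.483 FPKM, against 2.08 to 2.41 in the other 4. TBI 1 stood out 3 times. Abcb9, the lysosomal peptide transporter, was at 9.07 FPKM, against 13.7 to 15.2 in the other 4 injured libraries. Abca17 was at 0.485 FPKM, against 0.0741 to 0.123 in the other 4, and Abcc12 at 0.818 FPKM, against 0.0107 to 0.0329 in the other 4, both with a mean below the minimum for testing. TBI 1 had the highest choroid plexus score and the lowest neuron score of the 10 libraries, and their part in these values was not tested.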

How the results depend on the processing

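No row passed adjustment in the fit reported or in the alternatives, except 2 rows without sham 4 and 2 without sham 2, sham 4 and TBI 1, and none of these was a member; leaving out 1 library gave 0 to 2. Of 830 values of the 32 members given over 26 alternatives, 0 passed adjustment and 63 changed sign. The sign held in all alternatives for 18 of them, among them Abca1, Abca7, Abcg2 and Abcb1a/Abcb1b. The number of all 34 members with a lower mean, 18, ran from 13 to 20. Sign changes gave these log2 differences: under quantile normalization Abca5 -0.031, Abcc4 -0.018; with array weights Abca5 -0.0052, Abcc4 -0.082, Abcc5 0.035, Abcd4 0.00096, Abce1 0.011, Abcg1 -0.015, Abcg4 0.15; without sham 2, sham 4 and TBI 1 Abca5 -0.062, Abcb9 0.041, Abcc5 0.039, Abcc6 0.081, Abcd4 0.083, Abcg1 -0.023, Abcg4 0.024. Further, with the choroid plexus score Abcb10 0.042, Abcc4 -0.18, Abcf2 0.0094, Abcg4 0.12, and with both scores Abcb10 0.021, Abcc4 -0.15, Abcg3/Abcg3l3 0.077, Abcg4 0.080. Others were found with the matrix and meninges score Abcc10 0.0031, with the endothelial score Abcc10 0.032, Abcc6 0.074, Abcg3/Abcg3l3 0.21. With 1 library left out, members whose sign changed ran over these ranges: Abca5 -0.061 to 0.076, Abcb10 -0.11 to 0.025, Abcc10 -0.062 to 0.067, Abcc4 -0.084 to 0.16, Abcc5 -0.12 to 0.0041, Abcc6 -0.18 to 0.031, Abcd4 -0.064 to 0.074, Abce1 -0.060 to 0.0079, Abcf2 -0.073 to 0.018, Abcf3 -0.0014 to 0.054, Abcg3/Abcg3l3 -0.34 to 0.10, Abcg4 -0.076 to 0.12. The causes were not tested. Rows at an unadjusted p under 0.05 numbered 472, but 1318 with array weights, 1450 with the endothelial score, 804 without a filter, 746 with the matrix and meninges score, 775 without sham 2 and 740 without TBI 2. The library numbers did not pair the libraries: same-numbered libraries correlated at -0.38 to 0.31, and only sham 5 correlated best with the library of its own number. With the replicate block 0 rows passed and 672 had an unadjusted p under 0.05, and 18 members again had a lower mean, with Abca1 at 0.37. Without a known depth, a low value cannot be told from one not detected.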
